A study of Rattus norvegicus with 23 samples.

Results

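The subject of this report is a difference of differences in rat liver: the effect of alpha-naphthylisothiocyanate (ANIT) minus the effect of methylenedianiline (MDA), each effect taken against the vehicle of its own in-life study. Of the 23 arrays in the series, the 12 that enter this contrast were used, 3 in each of 4 groups. ANIT was given at 100 mg/kg and its controls received corn oil at 5 ml/kg, while MDA was given at 100 mg/kg and its controls received 35% ethanol at 2 ml/kg. All 12 animals were young male Sprague Dawley rats dosed by oral gavage on successive days and fasted overnight before necropsy, and RNA came from 1 lobe of the liver, the left lateral. No group carried a genetic alteration. On these arrays each compound was represented by a single dose and time, and the untreated state by the vehicle animals alone. Values are log2 signals after robust multichip averaging (RMA), a method that summarises the probes of an array into 1 value per probe set. A positive difference means that a transcript was higher after ANIT, relative to corn oil, than after MDA, relative to ethanol.

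ANIT and MDA are both classical toxicants of the intrahepatic bile ducts. ANIT is conjugated to glutathione in hepatocytes, carried into bile and released onto the duct epithelium, and MDA is an aromatic diamine that also injures duct cells. Cholesterol synthesis in the liver runs from acetyl-CoA through mevalonate and squalene to cholesterol, and its enzymes share control by the sterol-sensing transcription factor SREBP-2, which acts on promoters together with the CCAAT-binding factor NF-Y. Retinoic acid is cleared by the CYP26 hydroxylases, whose genes are themselves switched on by retinoic acid receptors. Leukocytes that enter injured liver bring transcripts for antigen presentation and interferon responses.

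The start regions of 5 genes are shown because they belong to 3 of the gene groups with members called in the difference: sterol synthesis (Idi1, Msmo1, Hsd17b7), retinoic acid clearance (Cyp26a1) and interferon response (Gbp2). Each runs from 250 bases before to 50 bases after the annotated start and is printed 5′ to 3′ on the strand of the gene, from RefSeq on the rat assembly GRCr8. The windows lie at chr17:66547475-66547774, minus strand for Idi1, chr16:29746863-29747162, plus strand for Msmo1, chr13:84722705-84723004, minus strand for Hsd17b7, chr1:244883572-244883871, plus strand for Cyp26a1 and chr2:234005477-234005776, plus strand for Gbp2. Capitals mark CCAAT (or ATTGG, its reverse complement) in the first 3, the direct repeat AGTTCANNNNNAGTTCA in Cyp26a1, where it reads on the opposite strand, and TTTCNNTTTC in Gbp2.
Idi1: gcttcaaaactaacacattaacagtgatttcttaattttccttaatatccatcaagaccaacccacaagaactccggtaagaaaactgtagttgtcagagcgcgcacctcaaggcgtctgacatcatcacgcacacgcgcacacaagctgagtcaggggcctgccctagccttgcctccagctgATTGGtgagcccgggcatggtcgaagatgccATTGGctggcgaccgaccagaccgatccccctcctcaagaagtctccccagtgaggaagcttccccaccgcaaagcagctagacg
Msmo1: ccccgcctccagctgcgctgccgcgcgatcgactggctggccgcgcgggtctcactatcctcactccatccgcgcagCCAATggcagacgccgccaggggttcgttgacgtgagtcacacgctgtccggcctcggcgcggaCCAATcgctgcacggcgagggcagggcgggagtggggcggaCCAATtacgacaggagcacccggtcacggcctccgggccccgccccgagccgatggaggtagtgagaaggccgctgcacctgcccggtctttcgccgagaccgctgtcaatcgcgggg
Hsd17b7: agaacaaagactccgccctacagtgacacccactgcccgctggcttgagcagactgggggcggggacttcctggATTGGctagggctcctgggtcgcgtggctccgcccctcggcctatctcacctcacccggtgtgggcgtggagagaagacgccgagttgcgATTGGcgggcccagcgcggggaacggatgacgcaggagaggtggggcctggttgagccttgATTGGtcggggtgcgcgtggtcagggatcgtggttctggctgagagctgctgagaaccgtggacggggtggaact
Cyp26a1: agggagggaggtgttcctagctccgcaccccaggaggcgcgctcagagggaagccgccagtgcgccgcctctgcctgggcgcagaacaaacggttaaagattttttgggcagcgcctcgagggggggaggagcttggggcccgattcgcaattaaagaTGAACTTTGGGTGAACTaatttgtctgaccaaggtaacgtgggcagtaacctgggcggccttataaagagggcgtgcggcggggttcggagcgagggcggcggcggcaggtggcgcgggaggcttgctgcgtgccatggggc
Gbp2: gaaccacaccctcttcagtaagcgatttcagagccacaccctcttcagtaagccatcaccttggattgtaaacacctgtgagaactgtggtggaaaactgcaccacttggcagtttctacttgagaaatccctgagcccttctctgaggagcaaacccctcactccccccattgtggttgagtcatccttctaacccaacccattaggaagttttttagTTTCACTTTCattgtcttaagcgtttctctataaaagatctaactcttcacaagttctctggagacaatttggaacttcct
Both strands of all 33469 start regions in the table were searched. CCAAT occurred in 10 of the 13 sterol synthesis genes that were called in the difference and had an entry, against 37.5% of all entries. The direct repeat, the form bound by retinoic acid receptors, occurred in 0.00896% of all entries, which is 3 of them, and in Cyp26a1 its first base lay at position -92 from the start. Of the 5 called members of the interferon and antigen presentation list, Gbp2 and Tap2 held TTTCNNTTTC, which was found in 3.92% of all entries. The core TCACNCCAC of the sterol regulatory element occurred in 0 of the 13 sterol genes and in 1.12% of all entries. These matches describe the sequence of the windows only.

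The effects of ANIT and MDA were called different for a small share of the array. Of 31042 probe sets tested, 361 (1.16%) were called in the difference, at an adjusted p under 0.05 and a fold over 1.5. Counted by gene, with each gene read from 1 probe set, 238 of 14217 genes (1.67%) were called. The difference was positive for 101 genes (0.71%) and negative for 137 (0.964%). For comparison, ANIT against corn oil called 546 genes higher (3.84%) and 480 lower (3.38%), and MDA against 35% ethanol called 697 higher (4.9%) and 601 lower (4.23%). These single comparisons share their samples with the difference, so they show how a difference arose and add no separate evidence for it.

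**Figure D1:**
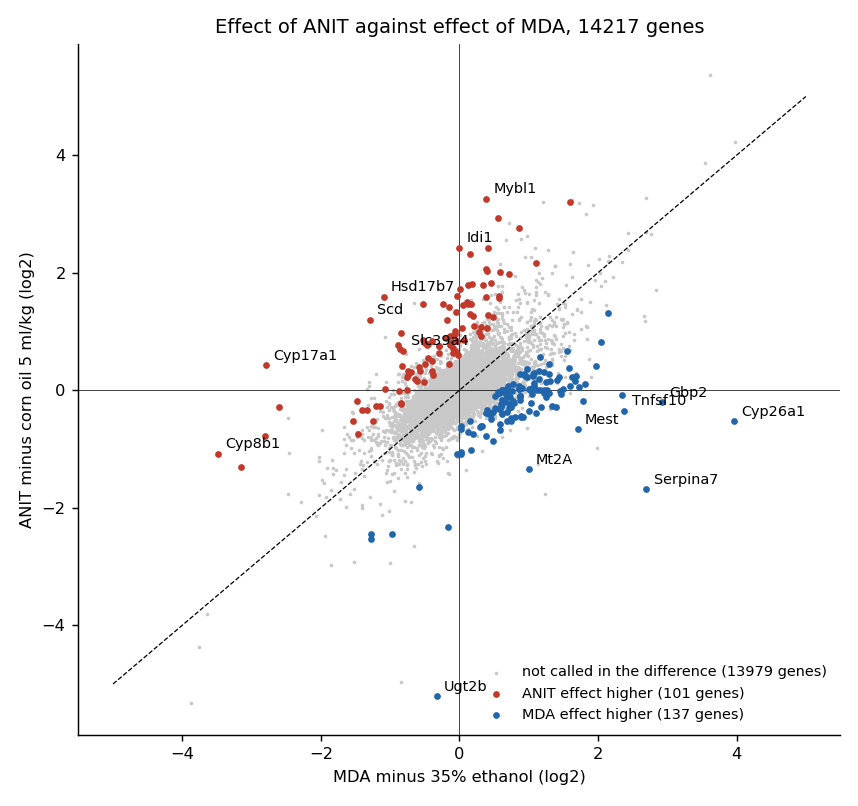
Effect of ANIT against corn oil (vertical axis) and of MDA against 35% ethanol (horizontal axis) for 14217 genes, both as log2 differences of group means with 3 livers per group. The dashed line marks equal effects. The 101 genes called with a positive difference (red) lie above it and the 137 with a negative difference (blue) below it, 98 of the latter called higher after MDA and not called for ANIT.

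Most negative differences came from genes called for MDA alone, which does not show that ANIT left them unchanged. Among the 137, 98 were called higher after MDA and not called for ANIT, 16 were called lower after ANIT alone, 15 were called for neither, and 8 were called for both compounds. Among the 101 with a positive difference, 58 were called higher after ANIT alone and 24 lower after MDA alone, 8 were called for neither and 11 for both. In 5 genes the compounds were called in opposite directions: Hsd17b7, Tat and Slc39a4 rose with ANIT and fell with MDA, and Serpina7 and Mt2A fell with ANIT and rose with MDA.

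The vehicles must be read beside each value, since the difference equals the gap between ANIT and MDA livers minus the gap between corn oil and ethanol livers. Corn oil and 35% ethanol livers differed in 51 genes (0.359%). Of the 238 genes called in the difference, the vehicles were called different in 21 and the treated livers in 141, and the vehicle gap was the larger in 39. Vehicle, in-life study and dose volume cannot be told apart in these groups. Within groups the arrays correlated at 0.9871 to 0.9951 across probe sets, and sample medians ran from 8.95 to 9.02. The label of liver was borne out by the hepatocyte products, with albumin (Alb) at 14.57 to 15.98 in the 12 livers on a scale that ended at 15.98. The mean of the hepatocyte markers was 14.33, 13.81 and 14.43 in the corn oil livers, replicate 2 being the lowest. It was 13.77, 13.86 and 14.34 with ANIT, 14.38 to 14.41 with ethanol and 13.99 to 14.09 with MDA. Markers of pancreatic acinar cells, which liver should lack, averaged 7.78 to 7.94. No detection calls were used here, so levels near these were not shown to be above background, and an estimate that rests on them has no exact size. The small number of arrays limits precision, and the leave-one-out values given below show how much rests on single animals.

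Sterol synthesis was the list with the highest share of members called. Of the 17 measured, all 17 had a positive difference and 15 were called (88.2%, against 0.71% of all genes), with a median of 1.40 against -0.01 over all genes. ANIT raised 16 of the 17 (effects of 0.44 to 2.94), whereas MDA raised 0 and lowered 1 (effects of -1.09 to 0.56). The 2 members not called in the difference were Fdft1, squalene synthase, at 0.65 (adjusted p = 0.0659), and the sterol desaturase Sc5d at 0.94 (adjusted p = 0.0551).

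The early, mevalonate part of the pathway is carried by Acat2, Mvk, Pmvk, Mvd, Idi1 and Fdps. Idi1, the isopentenyl diphosphate isomerase whose start region is printed above, read 9.37, 9.76 and 10.21 in the corn oil livers and 12.26, 12.13 and 12.24 after ANIT. It read 11.35, 12.12 and 11.09 in the ethanol livers and 11.59, 11.54 and 11.44 after MDA. ANIT livers were thus all above their controls, while MDA livers fell within the range of theirs, and the corn oil livers were all below the ethanol livers. The difference was 2.42 ± 0.332 (adjusted p = 0.00549), a 5.37-fold ratio of effects, made up of a gap of 0.68 between treated livers and -1.74 between vehicles. Acat2, cytosolic acetoacetyl-CoA thiolase, showed a difference of 2.38 ± 0.234 (adjusted p = 0.000813), with ANIT at 2.94 ± 0.179 and MDA at 0.56 ± 0.124, the latter not called. Differences of 1.39 for mevalonate kinase (Mvk), 1.40 for Pmvk, 1.63 for Mvd and 1.63 for farnesyl diphosphate synthase (Fdps) had adjusted p between 0.000791 and 0.00417. A second probe set of Mvk gave 0.10 and was not called.

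Enzymes from squalene onwards came next. Squalene epoxidase (Sqle) read 9.87, 9.95 and 10.09 with corn oil, 12.31, 12.28 and 12.57 with ANIT, 11.13, 11.36 and 10.49 with ethanol and 11.54, 11.48 and 11.20 with MDA. ANIT livers stood above all other livers, and MDA livers were no lower than the middle ethanol value. The difference was 2.01 ± 0.258 (adjusted p = 0.0041). Msmo1, the sterol methyl oxidase with 3 CCAAT matches in its window, had a difference of 2.16 ± 0.166 (adjusted p = 0.000222): corn oil livers read 10.92, 11.03 and 11.40, ANIT 13.48, 13.39 and 13.46, ethanol 12.05, 12.29 and 12.08 and MDA 12.21, 12.40 and 12.28. Its vehicles were called different (-1.02), the only such case in the list. Hsd17b7, which reduces the sterol keto group and can also act on oestrone, was the member with the largest difference, 2.68 ± 0.261 (adjusted p = 0.000791).

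Hsd17b7 was the member on which the compounds had opposite effects. It read 9.59, 9.64 and 10.13 with corn oil and 11.68, 11.11 and 11.33 with ANIT, a rise of 1.59 ± 0.185. With ethanol it read 10.31, 10.86 and 10.62 and with MDA 9.47, 9.35 and 9.69, a change of -1.09 ± 0.152. Neither treated group overlapped its controls. The later enzymes Ebp and Nsdhl had differences of 1.39 (adjusted p = 0.00417) and 0.93 (adjusted p = 0.00776), with MDA values of -0.52 and -0.49 that were not called.

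**Figure D2:**
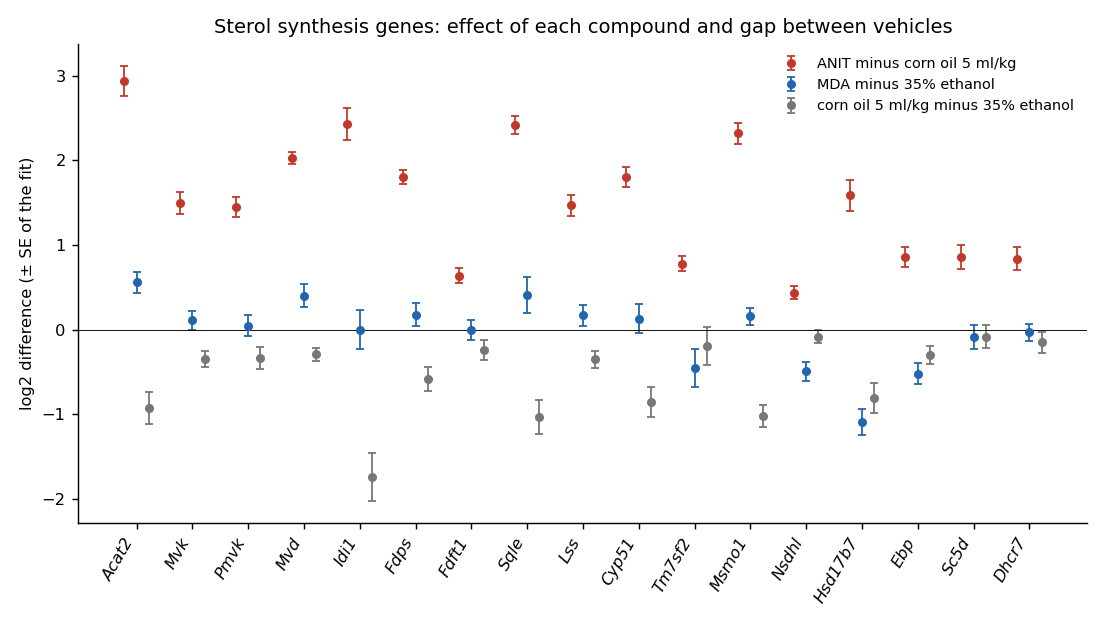
Log2 differences for the 17 measured sterol synthesis genes in pathway order: ANIT minus corn oil 5 ml/kg (red), MDA minus 35% ethanol (blue) and corn oil minus ethanol (grey), with the standard error of the fit. ANIT values lie above 0 throughout, MDA values scatter about 0 with Hsd17b7 lowest, and the vehicle gap is below 0 for each gene, widest for Idi1.

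The vehicles of this list differed in level. Averaged over the 17 genes, the log2 signal was 10.71 to 10.97 in corn oil livers, 12.27 to 12.44 after ANIT, 11.16 to 11.59 in ethanol livers and 11.31 to 11.35 after MDA. Livers of the other in-life study, which enter no test here, read 10.89 to 11.01 with corn oil at 2 ml/kg and 10.88 to 10.90 with water. The ethanol livers lay above each of the other vehicle livers, those with corn oil at 5 ml/kg included, and corn oil was below ethanol for all 17 genes. All 15 called members were also called between ANIT and MDA livers directly, and the vehicle gap exceeded the treated gap in 3 of them. That direct comparison leaves out the vehicle animals, but compound, vehicle and study cannot be told apart in it. The count of called members stayed between 13 and 15 when each liver was left out in turn.

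**Figure D3:**
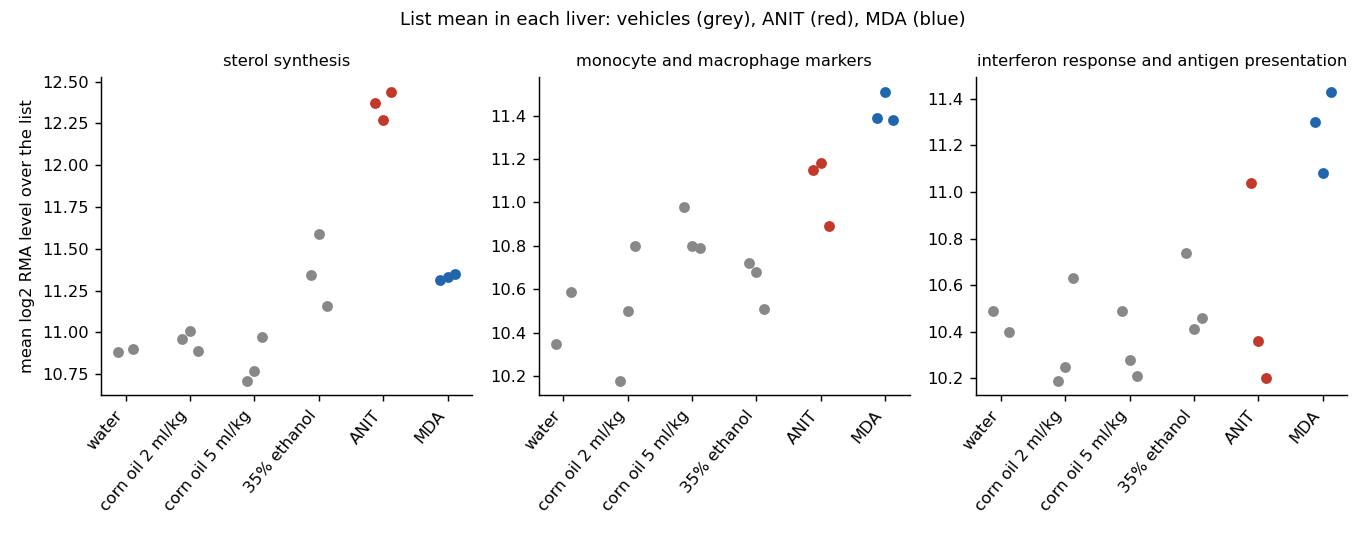
Mean log2 RMA signal per liver over the 17 sterol synthesis genes, the 25 monocyte and macrophage markers, and the 28 interferon response and antigen presentation genes, in the 4 vehicle groups (grey), ANIT (red) and MDA (blue). For sterol synthesis the ANIT livers stand alone at 12.27 to 12.44 with ethanol and MDA livers next, and for the other lists the MDA livers are the highest, with 1 ANIT liver at 11.04 near them in the interferon panel.

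Sensors and exporters of sterols moved on both sides. Of 11 measured, 2 were called positive (18.2%, against 0.71%) and 2 negative (18.2%, against 0.964%), with 1 of the 4 called between treated livers directly and the vehicle gap the larger in 3. Insig1, which retains the SREBP complex in the endoplasmic reticulum and is itself induced by it, had a difference of 1.20 ± 0.212 (adjusted p = 0.0191) with vehicles nearly level (0.09). Corn oil livers read 11.82, 11.82 and 11.82, ANIT 13.27, 13.28 and 13.68, ethanol 11.95, 11.89 and 11.35 and MDA 12.18, 12.17 and 12.03. Its call was lost without replicate 1 of corn oil (1.20) or replicate 2 of ethanol (1.12). Stard4, a sterol carrier, was called at 1.07 (adjusted p = 0.0105), with a fall after MDA (-0.74). Its vehicles were called different, with corn oil below ethanol, and that gap exceeded the one between treated livers. Abcg5 and Abcg8, which pair to form the transporter that exports sterols into bile, had negative differences of -1.46 (adjusted p = 0.0245) and -1.13 (adjusted p = 0.0238). For Abcg5 both compounds lowered the signal, to 8.97, 9.40 and 9.69 from 11.62, 11.71 and 12.07 with ANIT and to 9.46, 9.30 and 8.89 from 10.30, 10.31 and 9.99 with MDA, and the corn oil livers started 1.60 higher. ANIT and MDA livers themselves differed by 0.14 for Abcg5 and -0.18 for Abcg8, neither called, so for both genes the vehicle gap was the larger. Both calls were lost without replicate 3 of ethanol (-1.36 and -1.10) or without MDA replicate 1 (-1.34 and -1.11) or 2 (-1.42 and -1.10). Each was also lost without 2 further livers: corn oil replicates 2 and 3 for Abcg5 (-1.51 and -1.33), and corn oil replicate 1 and ethanol replicate 2 for Abcg8 (-1.12 and -1.13). Srebf2, the factor itself, was not called at 0.49 (adjusted p = 0.0992).

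After sterol synthesis, fatty acid synthesis had the highest share called in 1 direction. Of 17 members, 6 had a called positive difference (35.3%, against 0.71%) and 0 a negative one, with a median of 0.78, and ANIT raised 9 while MDA raised 2 and lowered 2. The 6 were Scd, Fasn, Acsl3, Elovl6, Acss2 and Acly. In 3 of them, Scd, Fasn and Acsl3, the vehicles were called different and the vehicle gap exceeded the treated gap, and the other 3 were the ones called between ANIT and MDA livers directly. Fatty acid synthase (Fasn) rose with both compounds, by 2.76 with ANIT and 0.86 with MDA, and the difference was 1.90 ± 0.249 (adjusted p = 0.00447). Fasn livers read 9.93, 10.27 and 10.57 with corn oil, 12.70, 13.22 and 13.14 with ANIT, 11.32, 11.51 and 11.38 with ethanol and 12.50, 12.28 and 12.01 with MDA. Corn oil livers were all below ethanol livers, and that gap (-1.15, called) exceeded the one between treated livers (0.75, not called). Elovl6, which elongates saturated acyl chains, had level vehicles: 8.55, 8.53 and 8.54 with corn oil and 8.66, 8.60 and 8.66 with ethanol, against 10.25, 10.42 and 11.16 with ANIT and 8.76, 9.06 and 9.29 with MDA. Its difference was 1.68 ± 0.272 (adjusted p = 0.0126). Scd, the stearoyl-CoA desaturase, combined an uncalled ANIT value of 1.20 ± 0.35 with a fall after MDA (-1.29 ± 0.197) to 2.48 (adjusted p = 0.0205), with the vehicles -1.88 apart, and lost its call without corn oil replicate 1 (2.42) or 2 (2.46) or ethanol replicate 3 (2.48).

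Cyp8b1 and Cyp17a1 were 2 liver P450 enzymes that MDA lowered and whose effects differed between the compounds. Cyp8b1, the sterol hydroxylase that directs synthesis towards cholic acid, read 14.21, 13.47 and 13.61 with corn oil and 12.91, 12.65 and 12.50 with ANIT. It read 13.41, 13.01 and 13.52 with ethanol and 9.86, 9.27 and 10.34 with MDA. Both compounds lowered it with no overlap between groups (-1.08 and -3.49), and the difference was 2.41 ± 0.359 (adjusted p = 0.00835), a 5.32-fold ratio. It was the 1 member of 18 bile acid synthesis genes to be called (5.56%, against 0.71%). Differences in that list were positive for 12 members and negative for 6, down to -2.37, which was not called. Cyp7a1, the rate-limiting enzyme of that pathway, had a similar estimate with a far larger error, 2.13 ± 0.875 (adjusted p = 0.352), as vehicle livers ranged from 8.71 to 10.72 with corn oil and from 9.10 to 11.84 with ethanol. Cyp17a1, a steroid hydroxylase and lyase, had the largest positive difference of the 14217 genes, 3.23 ± 0.384 (adjusted p = 0.00285). It read 8.13, 9.42 and 8.72 with MDA against 11.73, 11.35 and 11.57 with ethanol, while ANIT (12.63, 11.92 and 12.09) overlapped corn oil (11.54, 12.02 and 11.79).

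Among regulators, 2 transcription factors were called lower with MDA and not called with ANIT. Onecut1 (HNF6), a hepatocyte and biliary transcription factor, read 9.25, 8.89 and 9.28 with MDA against 12.21, 11.40 and 11.63 with ethanol, with ANIT at 11.44, 11.78 and 11.60 and corn oil at 11.72, 12.34 and 11.62. The difference was 2.32 ± 0.308 (adjusted p = 0.00468). Foxa3, another liver-enriched factor, was called at 1.24 (adjusted p = 0.0169), with MDA at -0.83 and ANIT at 0.41, the latter not called. These were the 2 called members of 23 liver transcription factors and nuclear receptors (8.7%, against 0.71%). The difference was positive for 17 of the 23 and negative for 6, down to -2.37, which was not called. Vipr1, the receptor for vasoactive intestinal peptide, fell with both (ANIT -0.77, MDA -2.80), for a difference of 2.03 ± 0.25 (adjusted p = 0.00328), although a second probe set of the gene gave 0.28. Stac3 fell with both as well (-1.30 and -3.15), and had a difference of 1.86 (adjusted p = 0.0161), with the vehicles -1.84 and the treated livers 0.02 apart.

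Members of the amino acid breakdown list that were called with either compound were lowered, with 1 exception. Of 39 members ANIT lowered 13 and raised 1, MDA lowered 21 and raised 0, and 3 were called in the difference (7.69%, against 0.71%), all positive: Tat, Tdo2 and Cbs. Of these, 2 were called between treated livers directly. Tyrosine aminotransferase (Tat) moved in opposite directions, to 12.87, 13.02 and 12.63 from a corn oil mean of 12.14 ± 0.212 (SD, n = 3) with ANIT and to 11.53, 11.41 and 11.66 from 12.44, 12.29 and 12.45 with MDA. None of these groups overlapped its control, and the difference was 1.56 ± 0.177 (adjusted p = 0.0021). Tryptophan dioxygenase (Tdo2) was at 0.98 (adjusted p = 0.0184) and cystathionine beta-synthase (Cbs) at 0.88 (adjusted p = 0.0137), both through MDA (-0.76 and -1.14). The call of Tdo2 was lost without corn oil replicate 1 (0.91) or 2 (0.97).

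Both retinoic acid hydroxylases were raised by MDA and not called with ANIT. Cyp26a1, the main retinoic acid hydroxylase of liver, read 7.87, 8.07 and 7.51 with ethanol and 11.20, 12.16 and 11.99 with MDA, a rise of 3.97 ± 0.247. With corn oil it read 7.80, 8.13 and 8.13 and with ANIT 7.37, 7.81 and 7.27. The MDA livers stood far above all others and the vehicles were 0.20 apart. The estimated difference was -4.50 ± 0.328 (adjusted p = 0.000222), and no fold is given because the other 9 livers read 7.27 to 8.13, near the pancreatic markers. Cyp26b1, the second hydroxylase of the family, read 11.33, 12.81 and 11.96 with MDA and between 9.52 and 10.02 in the other 9 livers, for a difference of -2.42 ± 0.373 (adjusted p = 0.0104). Its other probe set gave -1.04 and was not called.

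Of the 15 retinoid genes measured, 4 had a called negative difference (26.7%, against 0.964% of all genes) and 0 a positive one, while the median was 0.11. Aldh1a1, which makes retinoic acid from retinal, was the third, at -1.37 (adjusted p = 0.0194), with MDA livers at 13.66, 13.67 and 13.60 and ethanol livers at 12.59, 12.35 and 12.24. Dhrs3, a retinal reductase, was the fourth, at -0.68 (adjusted p = 0.0407), through a fall with ANIT (-0.66). Both of these calls were lost when corn oil replicate 1 or 3, or ethanol replicate 2, was left out, which left 2 called, and Dhrs3 lost its call in 10 of the 12 leave-one-out fits. Lrat, which esterifies retinol for storage, fell with both compounds (-1.33 and -1.83), with a difference of 0.51 (adjusted p = 0.793). The receptor gene Rarb was at 0.36 (adjusted p = 0.571).

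Leukocyte and interferon genes lay mostly on the negative side. MDA raised 18 of 25 monocyte and macrophage markers (median 0.85) and ANIT raised 3 and lowered 1 (median 0.20). The difference was negative for 24 of the 25, with a median of -0.63, and was called in 2 (8.0%, against 0.964%): Adgre1, the F4/80 antigen, at -1.49 (adjusted p = 0.0429), and Gpnmb, a lysosomal glycoprotein of activated macrophages, at -1.21 (adjusted p = 0.0256). Neither was called between ANIT and MDA livers directly, and corn oil was below ethanol for 3 of the 25. Gpnmb rose with both compounds, to 11.84, 11.75 and 11.62 from 10.76, 10.92 and 11.02 with ANIT and to 12.20, 13.02 and 12.67 from 10.64, 10.60 and 10.52 with MDA. The mean of the list was 10.79 to 10.98 with corn oil, 10.89 to 11.18 with ANIT, 10.51 to 10.72 with ethanol and 11.38 to 11.51 with MDA, so that ANIT livers overlapped their controls and MDA livers did not. In whole liver, fewer cells of a type and less RNA per cell cannot be told apart. The count of called markers was 0 without any 1 of the corn oil livers, ethanol replicate 3 or MDA replicate 3, 3 without ANIT replicate 2, and 1 without ANIT replicate 3, ethanol replicate 2 or MDA replicate 1 or 2.

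Interferon response and antigen presentation also lay below 0, with 23 of 28 members negative, a median of -0.44 and 5 called (17.9%, against 0.964%), each also called between treated livers directly. MDA raised 13 and ANIT 3. Gbp2, an interferon-induced guanylate-binding protein whose start region is printed above, read 9.62, 9.07 and 8.63 with ethanol and 12.36, 11.98 and 11.73 with MDA. It read 10.35, 9.31 and 9.40 with corn oil and 9.99, 9.70 and 8.77 with ANIT, which overlap. The difference was -3.11 ± 0.491 (adjusted p = 0.0114), an 8.65-fold ratio. Class II antigen presentation gave the next 2, the invariant chain Cd74 at -1.35 ± 0.21 (adjusted p = 0.0106) and RT1-Da, a class II alpha chain, at -1.32 ± 0.238 (adjusted p = 0.0205). Cd74 read 13.25, 12.93 and 13.03 with MDA and 11.35 to 11.86 in the other 9 livers. RT1-Da likewise averaged 12.99 ± 0.0487 (SD, n = 3) with MDA and 11.20 to 11.99 in the others. Tap2, a peptide transporter, was called at -0.91 (adjusted p = 0.0358) and RT1-DMa, which loads peptide onto class II molecules, at -0.89 (adjusted p = 0.04), the latter having risen with both compounds (0.67 and 1.56). ANIT replicate 1 stood apart from its group, at a list mean of 11.04 against 10.36 and 10.20, and without it 7 members were called. The count was 3 without corn oil replicate 1 or 2, ethanol replicate 2 or MDA replicate 1 or 3, and 2 without ethanol replicate 3.

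Lymphocyte markers were negative in 20 of 20, with a median of -0.55 and 5 called (25.0%, against 0.964%): Ptprc, Ccl5, Gzmb, Il2rb and Lck. Treated livers were called different directly for 4 of the 5, all but Lck. Ptprc (CD45), carried by all leukocytes, read 10.49, 10.34 and 10.24 with MDA, 9.08, 9.23 and 8.95 with ethanol, 9.71, 9.37 and 8.89 with ANIT and 9.38, 9.43 and 9.14 with corn oil, for -1.27 (adjusted p = 0.0264). Lck, a T cell kinase, was at -0.80 (adjusted p = 0.0169), and Gzmb, the granzyme of cytotoxic lymphocytes, at -1.02 (adjusted p = 0.0317). Ccl5 differed from these in that ANIT lowered it (-1.02) and MDA left it uncalled (0.17). Gzmb averaged 7.94 (corn oil at 2 ml/kg) and 7.98 (water) in vehicle livers of the other in-life study, near the pancreatic markers. The count went to 0 without corn oil replicate 1, to 1 without ethanol replicate 1 or MDA replicate 1, to 2 without corn oil replicate 2 or 3 or ethanol replicate 3, and to 3 without ANIT replicate 1 or 2 or ethanol replicate 2. Chemokines and cytokines had 4 of 28 called (14.3%, against 0.964%), Cxcl10, Ccl5, Tgfb1 and Il1a, all negative, and of these only Ccl5 was called between treated livers directly. The vehicles were called different in 1 of the 4, and the vehicle gap was the larger in 1. Cxcl10, an interferon-induced chemokine, was close to the threshold at -1.98 ± 0.434 (adjusted p = 0.0495) and lost its call in 11 of the 12 leave-one-out fits. The count for this list was 0 without any 1 of the corn oil livers, ethanol replicate 2 or MDA replicate 1, 1 without ANIT replicate 2 or 3, ethanol replicate 1 or 3 or MDA replicate 3, and 2 without MDA replicate 2. No neutrophil marker of 12 was called, the largest being Il1b at -1.21 (adjusted p = 0.083) and Fcnb at -0.99 (adjusted p = 0.119). In the single comparisons MDA raised 2 of the 12 and ANIT 0. The list mean was 8.17 to 8.24 with MDA and 7.83 to 7.99 with ethanol. With ANIT it was 7.94 to 8.09 and with corn oil 7.90 to 8.08. These levels are near the pancreatic markers (7.78 to 7.94), so the absence of calls does not show equal neutrophil content.

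Single immune-related genes with large differences lay outside those lists. Tnfsf10 (TRAIL), a death ligand induced by interferon, read 11.77, 10.84 and 11.67 with MDA against 9.11, 9.12 and 8.91 with ethanol, and 9.98, 9.39 and 9.06 with ANIT against 9.92, 9.92 and 9.64 with corn oil. The difference was -2.73 ± 0.346 (adjusted p = 0.0039), and its vehicles were called different (0.78). Il2rg, the shared gamma chain of several interleukin receptors, was at -1.59 ± 0.253 (adjusted p = 0.0117) with level vehicles (0.03). Fcgr3a, an IgG receptor, and Coro1a, a leukocyte actin regulator, were at -1.71 (adjusted p = 0.0266) and -1.68 (adjusted p = 0.0309). Fcgr3a lost its call in 6 of 12 leave-one-out fits and Coro1a in 9. Tenascin-C (Tnc), a matrix protein of injured tissue, read 8.82, 9.42 and 9.78 with MDA and 7.34 to 7.93 in the other 9 livers, and its estimated difference was -1.56 ± 0.258 (adjusted p = 0.0137), with the low livers again near the level of the pancreatic markers.

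**Figure D4:**
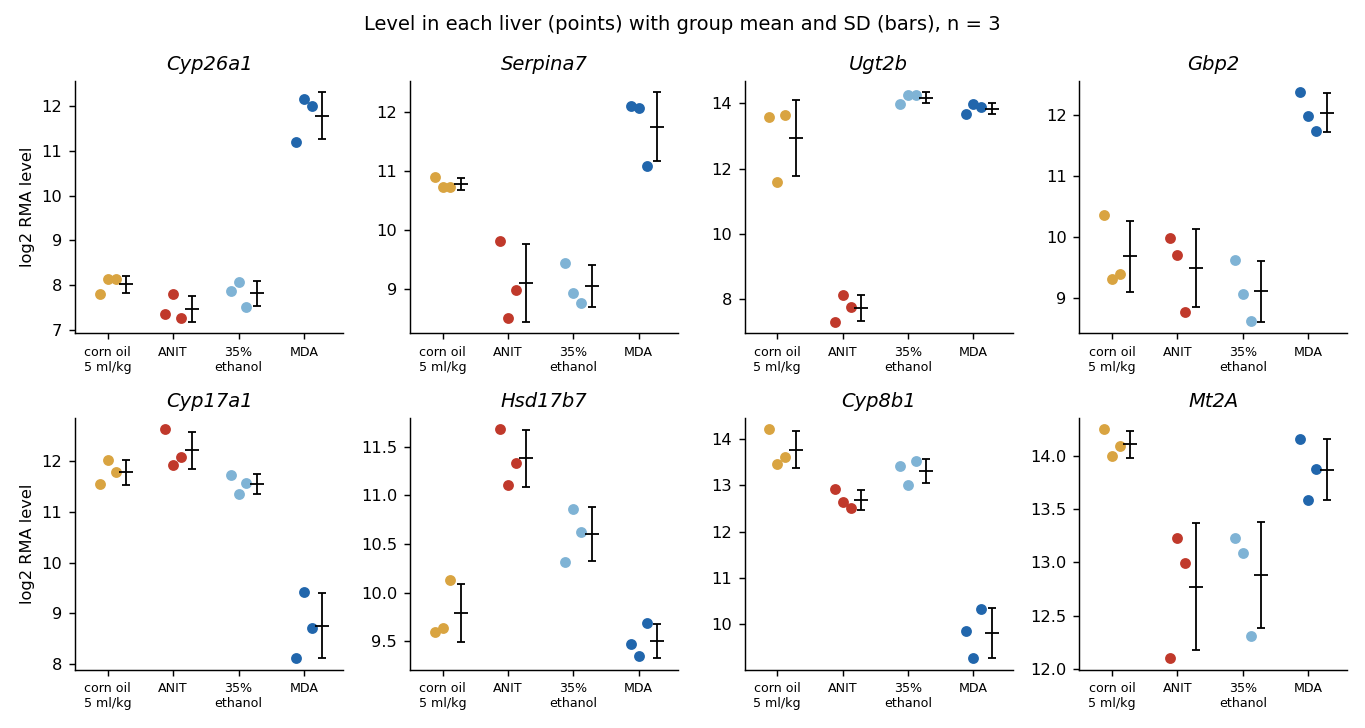
Log2 RMA level of 8 genes in each liver of the 4 groups (points, 3 per group) with the group mean and SD (bars). MDA livers are highest for Cyp26a1, Serpina7 and Gbp2 and lowest for Cyp17a1 and Cyp8b1, ANIT livers are lowest for Ugt2b and highest for Hsd17b7, and for Mt2A the corn oil and MDA livers lie above the ANIT and ethanol livers.

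Serpina7, thyroxine-binding globulin, showed the largest difference among genes with opposite effects. It read 10.90, 10.73 and 10.72 with corn oil and 9.81, 8.51 and 8.97 with ANIT, a fall, and 9.44, 8.93 and 8.75 with ethanol and 12.09, 12.06 and 11.07 with MDA, a rise. The single effects were -1.68 ± 0.285 and 2.70 ± 0.286, and the difference was -4.38 ± 0.453 (adjusted p = 0.00119). Corn oil livers were above ethanol livers by 1.74, a called gap, and ANIT and ethanol livers overlapped. Treated livers still differed by -2.64, also called. In the other vehicle groups Serpina7 averaged 10.26 with corn oil at 2 ml/kg and 10.20 with water. Mt2A, a metallothionein that binds zinc, had the same form: a mean of 14.11 ± 0.127 (SD, n = 3) with corn oil, 12.10, 13.23 and 12.99 with ANIT, 13.23, 13.09 and 12.31 with ethanol and 14.16, 13.59 and 13.88 with MDA, for -2.34 ± 0.398 (adjusted p = 0.016). Its vehicles were 1.24 and its treated livers -1.10 apart, neither called, and the call in the difference was lost without corn oil replicate 1 (-2.27). Slc39a4, the zinc importer ZIP4, had the mirror form, at 1.48 ± 0.177 (adjusted p = 0.00289), with ANIT at 0.67 ± 0.111, MDA at -0.81 ± 0.127 and a called vehicle gap of -0.72.

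Of the 16 genes called lower with ANIT and not called with MDA, Ugt2b and Serpina3c had the largest differences. Ugt2b, a glucuronosyltransferase from a family of close paralogs that probes can share, read 7.32, 8.12 and 7.77 with ANIT against 13.59, 11.59 and 13.65 with corn oil, and 13.66, 13.97 and 13.89 with MDA against 13.98, 14.27 and 14.26 with ethanol. ANIT livers were far below all others, and corn oil replicate 2 stood apart from its group. The estimated difference was -4.88 ± 0.591 (adjusted p = 0.00317), and was -5.55 without that liver, but the ANIT livers were near the level of the pancreatic markers and its size is not exact. The second probe set of the gene gave -2.36 and was not called, and the average of both, at -3.62, was not called either. Serpina3c, a serine protease inhibitor, fell with ANIT to 12.85, 13.14 and 12.25 from 15.51, 14.27 and 15.48, with means of 15.23 after MDA and 15.40 with ethanol. Its difference was -2.17 ± 0.433 (adjusted p = 0.0335), and it was lost in 9 of 12 leave-one-out fits.

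Most male-predominant genes were lowered by ANIT, and 2 of them were called in the difference (15.4%, against 0.964%). Of 13 measured, ANIT lowered 11 (median -1.41) and MDA 7 (median -0.75), and the difference was negative for 11 with a median of -0.81. Cyp2c11, the main male-specific P450 of rat liver, read 14.21, 13.87 and 13.97 with corn oil, 11.42, 11.71 and 11.57 with ANIT, 14.80, 14.30 and 14.69 with ethanol and 13.45, 13.11 and 13.39 with MDA. The effects were -2.45 ± 0.116 and -1.28 ± 0.148, and the difference was -1.17 ± 0.201 (adjusted p = 0.0169), lost without corn oil replicate 1 (-1.07). Ust5r, an organic anion transporter-like protein, gave -1.27 ± 0.185 (adjusted p = 0.0077). Car3, a muscle and liver carbonic anhydrase, fell by 5.33 on the log2 scale with ANIT and by 3.88 with MDA, its vehicles were called different (-1.09), and its difference of -1.45 (adjusted p = 0.145) was not called, nor was that of Obp3 at -4.11 ± 1.28 (adjusted p = 0.176).

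Igfbp2 and Mest were raised by MDA and not called with ANIT. Igfbp2, an insulin-like growth factor binding protein, read 10.11, 9.74 and 9.96 with ethanol and 11.91, 11.68 and 11.39 with MDA, while corn oil (11.19, 10.97 and 11.59) and ANIT (11.58, 11.05 and 11.27) overlapped. The difference of -1.67 ± 0.257 (adjusted p = 0.0103) was the only call among 13 genes of the growth hormone and IGF axis (7.69%, against 0.964%). The median of that list was 0.22, and its highest difference, 1.97, was not called. For Igfbp2, ANIT and MDA livers were -0.36 apart and the vehicles 1.31, the larger gap. Mest, an imprinted hydrolase-like gene, gave -2.37 ± 0.323 (adjusted p = 0.00549), with ANIT at -0.66 ± 0.205, not called, and MDA at 1.71 ± 0.208. In vehicle livers of the other in-life study Mest averaged 7.76 (corn oil at 2 ml/kg) and 7.90 (water), near the level of the pancreatic markers.

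Mybl1, a MYB-family transcription factor, was raised by ANIT and not called with MDA. It read 11.06, 11.20 and 11.65 with ANIT and 8.01, 7.97 and 8.16 with corn oil, against 8.91, 9.03 and 8.64 with MDA and 7.74, 8.47 and 9.20 with ethanol, a group with a wide spread. The estimated difference was 2.86 ± 0.392 (adjusted p = 0.00549), with corn oil livers near the level of the pancreatic markers. Cell cycle genes as a list were positive in 46 of 48, with a median of 0.59. ANIT raised 35 and MDA 10, and 3 were called in the difference (6.25%, against 0.71%): Top2a, topoisomerase II alpha, at 1.45 (adjusted p = 0.0345), Ube2c at 1.26 (adjusted p = 0.0324) and Mcm4, a replication helicase subunit, at 1.04 (adjusted p = 0.0392). None of the 3 was called between treated livers directly, and corn oil was below ethanol for 42 of the 48. The 3 calls fell to 0 without any 1 of the corn oil livers, ethanol replicate 2 or 3 or MDA replicate 1, and to 1 without ANIT replicate 3, ethanol replicate 1 or MDA replicate 3. In vehicle livers of the other in-life study Mcm4 averaged 7.13 (corn oil at 2 ml/kg) and 7.33 (water), below the pancreatic markers.

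Markers of duct, matrix and endothelial cells had 6 calls in the difference, none of them called between ANIT and MDA livers directly. Of 23 cholangiocyte and ductular markers, ANIT raised 6 and MDA 7, the median difference was 0.03, and 1 was called (4.35%, against 0.71%). Epcam, a surface protein of duct epithelium, rose by 2.16 with ANIT and 1.10 with MDA, and its difference was 1.06 ± 0.226 (adjusted p = 0.0444), with a vehicle gap of -0.86, called, and a treated gap of 0.20. That call was lost in 9 of 12 leave-one-out fits. Krt19, a keratin of duct cells, was not called at 0.36 (adjusted p = 0.85), with a 95% interval of -0.51 to 1.22. Of 40 stellate cell, fibroblast and matrix markers, ANIT raised 11 and MDA 16, and 2 were called (5.0%, against 0.964%), both negative: Tgfb1 at -0.99 (adjusted p = 0.0264) and Tagln, a smooth muscle actin-binding protein, at -0.83 (adjusted p = 0.0463). Of 18 endothelial markers 3 were called, all negative (16.7%, against 0.964%): Tie1 at -1.01 ± 0.126 (adjusted p = 0.00354), Stab1 at -0.95 (adjusted p = 0.0346) and Pecam1 at -0.77 (adjusted p = 0.0245).

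In 2 of the 3 endothelial genes the vehicle gap exceeded the treated gap. For Tie1 the treated livers were -0.51 and the vehicles 0.50 apart, and its call held in each leave-one-out fit. Without any 1 of corn oil replicate 1 or 2, ANIT replicate 2 or ethanol replicate 3, it was the only endothelial call. The 2 stellate calls fell to 0 without any 1 of the corn oil livers, ethanol replicate 2 or 3 or MDA replicate 2, and to 1 without ANIT replicate 2 or 3, ethanol replicate 1 or MDA replicate 1 or 3.

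**Figure D5:**
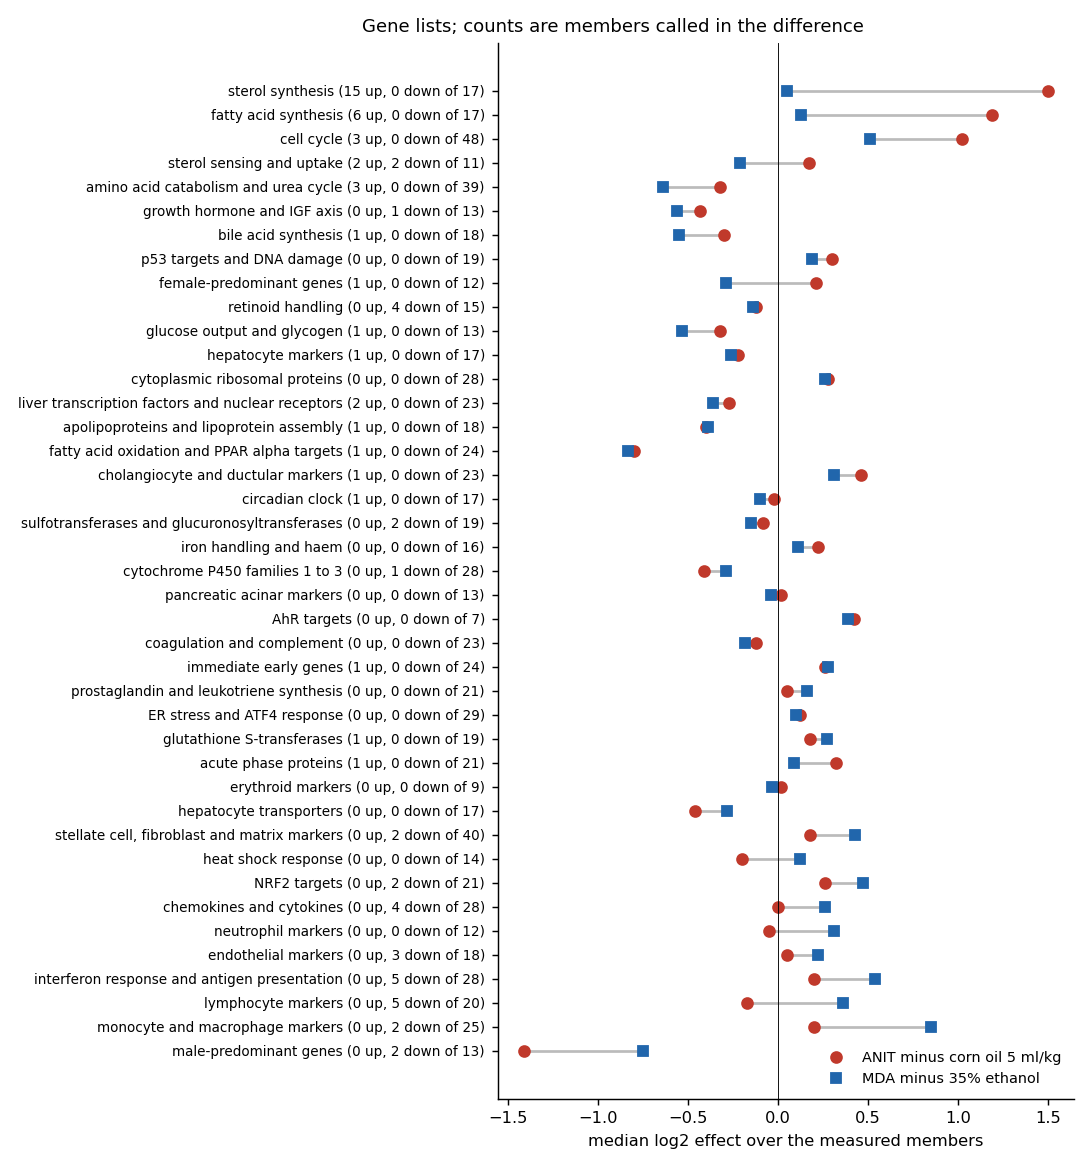
Median log2 effect of ANIT (red circles) and MDA (blue squares) over the measured members of each of 41 gene lists, ordered by the median difference, with the numbers of members called in the difference beside each name. Sterol synthesis shows the widest separation, with an MDA median of 0.05 and the ANIT median far to its right, and fatty acid oxidation shows medians of -0.80 and -0.83.

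Several large responses to both compounds were not called different. Tsx rose by 4.22 with ANIT and 3.98 with MDA, with a difference of 0.24 (adjusted p = 0.882) and a 95% interval of -0.43 to 0.91. It averaged 7.71 (corn oil at 2 ml/kg) and 7.72 (water) in vehicle livers of the other in-life study, near the pancreatic markers. Cxcl1, a neutrophil chemokine, rose by 2.66 and 2.76 (interval -0.65 to 0.45), and Abcc3, the basolateral bile acid exporter MRP3, by 2.70 and 2.69 (interval -0.86 to 0.90). The dioxin-responsive P450 Cyp1a1 rose by 3.87 and 3.54 (interval -0.46 to 1.12). These intervals bound the difference and do not show that the effects were equal, and those of Abcc3 and Cyp1a1 are the widest of the 4. The NRF2 target Nqo1 had an interval of -0.70 to 0.30, the glutathione synthesis gene Gclc -0.53 to 0.15, the bile acid importer Slc10a1 -1.29 to 0.31 and the bile salt export pump Abcb11 -0.89 to 0.22.

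Lcn2, an iron-scavenging acute phase protein, rose by 5.36 ± 0.503 with ANIT and 3.62 ± 0.129 with MDA, and its vehicles were called different (-0.64). The difference, 1.74 ± 0.577 (adjusted p = 0.211), was not called, and ANIT replicate 3 read 15.61 against 13.75 and 13.38. Without that liver the difference was 1.06 and was called. Ccl2, a monocyte chemokine, was not called at -0.79 (adjusted p = 0.427). Fatty acid oxidation and PPAR alpha targets were lowered in 18 of 24 members by ANIT and 17 by MDA, with medians of -0.80 and -0.83. In the difference 1 was called (4.17%, against 0.71%), Cyp4a1 at 0.72 (adjusted p = 0.0405), with effects of -0.75 and -1.47. Its call was lost in 10 of the 12 leave-one-out fits. Glutathione S-transferases, close relatives whose probes can be shared, had 1 of 19 called (5.26%, against 0.71%). It was Gstm3, which rose by 3.20 with ANIT and 1.59 with MDA for a difference of 1.62 ± 0.253 (adjusted p = 0.0106). No member was called in 12 lists: neutrophil markers, hepatocyte transporters, AhR targets, p53 targets, ER stress, heat shock, prostaglandin synthesis, iron handling, coagulation, ribosomal proteins, erythroid and pancreatic acinar markers. With only 1.67% of all genes called, lists of this size can lack a call at that share. The absence of calls therefore does not show equal effects in these lists.

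Single members stood out in other lists. Ugdh, which makes the UDP-glucuronic acid used by glucuronosyltransferases, was called at -0.84 ± 0.138 (adjusted p = 0.0137), with ANIT at -0.41 and MDA at 0.43. Of the 21 NRF2 targets it and Aldh1a1 were called, both negative (9.52%, against 0.964%). Rora, an orphan nuclear receptor of the clock list, had a called positive difference (adjusted p = 0.0304), although another of its probe sets read -0.04. Pfkfb1, the liver enzyme that sets the main allosteric signal of glycolysis, was at 0.99 (adjusted p = 0.0356), the apolipoprotein Apoc4 at 0.76 (adjusted p = 0.0238) and the immediate early gene Ier3 at 1.07 (adjusted p = 0.0451). Leave-one-out fits lost the call in 7 of 12 for Rora, 9 for Pfkfb1, 5 for Apoc4 and 10 for Ier3.

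Loss of single calls in the 12 leave-one-out fits was examined only for list members and for genes chosen by the naming rule. Among those discussed above, the calls that held in each fit were those of Acat2, Acly, Acsl3, Acss2, Cbs, Cd74, Cyp17a1, Cyp26a1, Cyp26b1, Cyp8b1, Ebp, Elovl6, Fasn, Fdps, Foxa3, Gbp2, Gstm3, Hsd17b7, Idi1, Igfbp2, Il2rg, Mest, Msmo1, Mvd, Mvk, Mybl1, Nsdhl, Onecut1, Pmvk, Serpina7, Slc39a4, Sqle, Stac3, Stard4, Tat, Tie1, Tnc, Tnfsf10, Ugdh, Ugt2b, Ust5r and Vipr1. Over the 110 genes chosen by the naming rule, 74 were called, of which 35 kept the call in all 12 fits and 24 lost it in more than 6.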

How the data were processed

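Liver RNA of 23 rats was hybridised to 1-colour Affymetrix rat genome arrays, of which 12 were used here, 3 in each of 4 groups set by the labels. The log2 values deposited by the authors were RMA-normalised in Array Studio. They were used as deposited, leaving out 57 control probe sets of 31099. Of the 31042 tested, 20826 named a single gene, 436 named several and 9780 were unnamed. Each gene was represented by its brightest probe set, by the mean of all 23 samples, giving 14217 genes. Contrasts were fitted with limma 3.58.1 in R 4.3.3 (lmFit, eBayes), the difference over 12 samples and single comparisons over their 6, with Benjamini-Hochberg adjustment over all probe sets. Called means an adjusted p under 0.05 and a fold over 1.5. Errors are standard errors unless marked.

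Named genes were the 15 highest and 15 lowest called differences, up to 5 called members of each of 41 lists (or 2 uncalled), genes called in opposite directions, and a fixed set. The genes and lists were chosen with earlier results of these data known. Alternatives were quantile normalization, median centring, a filter on dim probe sets, a variance trend, the methods' t-test, all 23 samples, the mean of all probe sets, and leaving out each liver. The fitting was tested on simulated data. The small number of arrays limits precision. That the 3 corn oil arrays at 5 ml/kg came from different rats rests on the animal numbers in their titles.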

Additional observations from a re-analysis of the deposited data

Results flagged for a closer look

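Some genes were called in opposite directions by the 2 compounds, and for each the difference itself was tested by the fitted contrast. It was -4.38 for Serpina7, 2.68 for Hsd17b7, -2.34 for Mt2A, 1.56 for Tat and 1.48 for Slc39a4. The vehicles were called different for Serpina7 (1.74) and Slc39a4 (-0.72) and not for Hsd17b7 (-0.81), Mt2A (1.24) or Tat (-0.26), and their part in the results was not tested.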

How the results depend on the processing

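The 361 probe sets called in the difference became 385 with quantile normalization, 355 with median centring, 411 without the dimmest probe sets, 355 with a variance trend and 502 with all 23 samples. The methods' t-test gave 28 after Benjamini-Hochberg adjustment and 629 at an unadjusted p under 0.01. Leaving out 1 liver gave 150 (without corn oil replicate 1) to 381 (without ANIT replicate 1), with 203 and 214 without corn oil replicates 2 and 3 and 217 and 206 without ethanol replicates 2 and 3. With the adjusted t-test, ANIT against corn oil went from 1671 to 222, MDA against ethanol from 2179 to 372, corn oil against ethanol from 107 to 1 and ANIT against MDA livers from 541 to 0 (3966 at an unadjusted p under 0.05). The last was 914 with all 23 samples. Leave-one-out ranges were 1164 to 1787, 1774 to 2324, 2 to 146 and 175 to 521, in that order. No called gene of the 74 changed sign in any setting run. Calls lost were 4 with quantile normalization, 2 with centring, 7 with all 23 samples, 4 with the mean of all probe sets and 66 with the adjusted t-test. Signs turned for genes not called: Abcc3 (-0.01 with quantile normalization, -0.28 to 0.36 leaving out 1 liver), Cxcl1 (-0.23 to 0.08), Cyp1a1 (-0.02 to 0.58) and Krt19 (-0.07 to 0.62). The cause of these shifts was not tested. No paired analysis was possible because the groups hold different rats and the replicate numbers follow accession order.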

Other observations

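Of the 238 genes called in the difference, 168 belonged to none of the lists. The following were picked from them after their values were seen and are given as values. Leukocyte surface genes had negative differences of -1.43 for Cd53, -1.51 for Lilrb4, -1.47 for Clec4a3, -1.47 for Cd83, -1.22 for Cd180 and -1.17 for Fcgr1a. With MDA they were called higher, by 1.17 (Fcgr1a) to 1.68 (Cd53), and with ANIT they were not called, at -0.28 (Cd83) to 0.25 (Cd53). The innate sensors Tlr1, Tlr8 and Sting1 were at -1.22, -1.03 and -0.66, and Casp1, the inflammasome protease, at -0.78, each called higher with MDA and not called with ANIT.

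Zinc-related genes other than Mt2A and Slc39a4 were looked up for the same reason. Mt1, the second metallothionein measured, had a difference of -0.42, and the zinc exporter Slc30a1 0.67, neither called, although Slc30a1 fell with MDA (-1.10). The importers Slc39a1, Slc39a5, Slc39a8, Slc39a10 and Slc39a14 had differences of -0.03, 0.10, -0.04, -0.02 and -0.04, none called.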
